A study of Danio rerio with 4 samples.

Results

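miR-204 was followed in sorted neural crest cells (NCC) and in the remaining cells (non-NCC) of zebrafish embryos, through the 3 rows dre-miR-204-5p, dre-miR-204-3p and dre-miR-204-3-3p among the 372 miRNA rows of each deposited table. They were taken by name and not by a cut on their values, though earlier results of these data were known. The cells came from embryos carrying Tg(sox10:eGFP,mRFP), in which the sox10 promoter drives eGFP and mRFP in the crest, and all groups share this transgenic background with no further allele or treatment. The groups were GFP-positive cells (NCC) at 28 hpf, GFP-negative cells (non-NCC) at 28 hpf, NCC at 16 hpf and non-NCC at 16 hpf, where hpf is hours post-fertilization. Each group is 1 library, so no value has a replicate, and the populations were not tested against each other. The authors place the 16-hpf embryos before crest migration and the 28-hpf embryos after it. GFP marks cells with sox10 promoter activity, which in zebrafish also include the otic vesicle, and the tables hold no mRNA with which the sort could be checked. The authors checked the sort by mRFP fluorescence and by RT-qPCR of the crest marker foxd3 and the non-crest marker tbx5a. They also named miR-204 among the crest miRNAs of earlier reports that were found in NCC at 16 hpf.

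miRNAs are cut from hairpin precursors that yield a 5p and a 3p strand, and as a rule one strand is kept in the Argonaute complex and silences mRNAs while the other is degraded. miR-204 is best known from the eye, where in vertebrates it is abundant in the retinal pigment epithelium and acts in lens and retina development, in medaka in part through the transcription factor gene meis2. In mammals miR-204 is encoded within an intron of TRPM3, and miR-211, a close relative with the same seed that is linked to melanocytes and melanoma, lies within TRPM1. The RefSeq gene table of the GRCz12tu assembly, used for names and for overlap of genes, holds 3 zebrafish precursors. dre-mir-204-1 lies within the span of trpm3, dre-mir-204-2 within that of trpm1a, and dre-mir-204-3 within that of trpm1b. Reads of the 5p strand were deposited as 1 row for all precursors, so the contribution of each gene cannot be told from dre-miR-204-5p.

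The libraries differed greatly in depth. Whole reads could be recovered from the deposited normalized counts, and their sums at 28 hpf were 6502 for NCC and 1099312 for non-NCC. The sums at 16 hpf were 2340716 for NCC and 140132389 for non-NCC. The miR-430 family, which clears maternal mRNAs in the early zebrafish embryo, made up 72.8% of NCC and 66.7% of non-NCC at 28 hpf. At 16 hpf it made up 92.0% of NCC and 91.7% of non-NCC. Intervals below are exact 95% intervals from the reads. They cover counting error only and describe these libraries, since PCR copies of a molecule could not be recognized and each group was sequenced as 1 library. Intervals of a ratio of NCC to non-NCC, or of its change between stages, take the scaling as exact. Counting error in the scaling itself is not in them. At 28 hpf miR-25-3p, which has a ratio of exactly 1 in the deposited normalized counts, had 19 NCC reads.

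dre-miR-204-5p was detected in all 4 libraries and ranked among the 26 most abundant miRNAs in each. In the NCC library at 28 hpf it had 18 reads, which were 205 normalized counts, and in the non-NCC library it had 1905 reads, or 167 normalized counts. At 16 hpf it had 2486 reads (19192 normalized counts) in NCC and 27998 reads (3627 normalized counts) in non-NCC. Normalized counts can be compared within a stage only, because the tables of the stages were normalized apart. In the deposited scaling the level was thus close between populations at 28 hpf and higher in NCC at 16 hpf. The ratios of both stages changed with the scaling, as given below.

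As a share of all miRNA reads of its library, which does not depend on this normalization, dre-miR-204-5p took 0.277% in NCC at 28 hpf (Clopper-Pearson interval from 0.164% to 0.437%). In non-NCC at 28 hpf the share was 0.173% (0.166% to 0.181%). At 16 hpf it was 0.106% in NCC (0.102% to 0.110%) and 0.0200% in non-NCC (0.0197% to 0.0202%). In the order of these shares, the intervals of NCC and non-NCC at 28 hpf overlap, whereas both lie above NCC at 16 hpf, which lies above non-NCC at 16 hpf.

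**Figure D1:**
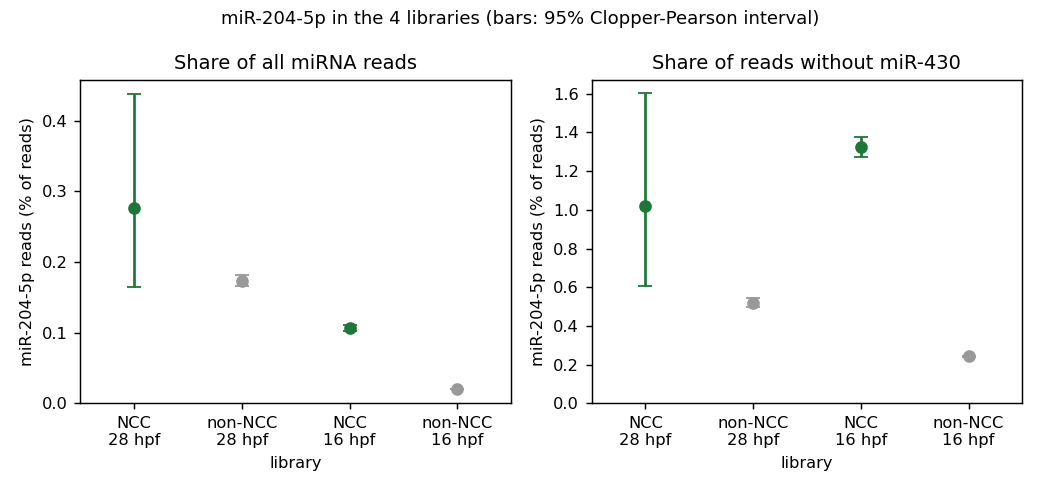
Share of dre-miR-204-5p in each library, in percent of all miRNA reads (left panel) and in percent of the reads outside the miR-430 family (right panel). Points are single libraries in green for NCC and grey for non-NCC, and bars are 95% Clopper-Pearson intervals. In the left panel the NCC library at 28 hpf is highest at 0.277%, and in the right panel the NCC library at 16 hpf is highest at 1.32%.

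The order of the stages within NCC turned on the miR-430 family. Over all miRNA reads, the share in NCC was 2.61-fold higher at 28 hpf than at 16 hpf (1.54 to 4.13), and that in non-NCC was 8.67-fold higher (8.28 to 9.09). Over the reads outside the miR-430 family, the share in NCC was 1.02% at 28 hpf (0.604% to 1.60%) and 1.32% at 16 hpf (1.27% to 1.38%). Ratios of 28 over 16 hpf were not planned for either denominator, and that without miR-430 was added after the shares were seen. In NCC the ratio was then 0.768 (0.455 to 1.22), so that the shares of both stages could not be told apart. In non-NCC the share was 0.520% at 28 hpf and 0.242% at 16 hpf, still 2.15-fold higher at 28 hpf (2.05 to 2.25).

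In rank, dre-miR-204-5p was 16th of 51 miRNAs with reads in NCC at 28 hpf. Counting error alone allows any place from 12 to 23 there, taking miRNAs whose read intervals overlap as not ordered. It was 19th of 237 in non-NCC at 28 hpf. At 16 hpf it was 14th of 226 in NCC and 26th of 339 in non-NCC, and without the miR-430 rows these places became 11 and 22. Its neighbours show how fine these ranks are. In NCC at 28 hpf, miR-25-3p stood just above it with 19 reads and miR-430c-3p was level with it at 18 reads. In NCC at 16 hpf, miR-181b-5p stood just above it with 2492 reads against 2486, within counting error, whereas miR-222a-5p followed with 1725 reads. In non-NCC the neighbours were clear of it, with miR-25-3p (2471 reads) and miR-205-5p (1407 reads) around its 1905 reads at 28 hpf, and miR-30d (35344 reads) and miR-183-5p (26594 reads) around its 27998 reads at 16 hpf.

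**Figure D2:**
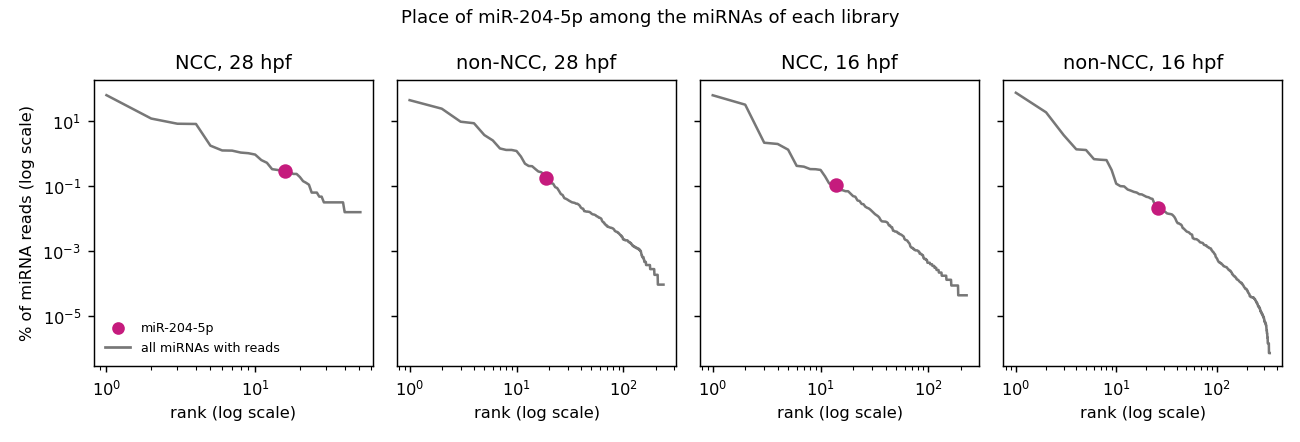
Share of miRNA reads against rank, both on log scales, for all miRNAs with reads in each library (grey line), with dre-miR-204-5p marked. It stands at rank 16 of 51, 19 of 237, 14 of 226 and 26 of 339 from left to right, on the upper part of each curve.

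The comparison of NCC with non-NCC asks whether the crest carries more miR-204 than the rest of the embryo. At 28 hpf, dre-miR-204-5p in NCC was at 1.23 times its non-NCC level (log2 ratio of 0.30 with an interval between -0.46 and 0.96), which includes an equal level. With libraries scaled to their totals without miR-430, the log2 ratio at 28 hpf was 0.97 with an interval between 0.21 and 1.63, which does not. At 16 hpf the NCC level was 5.29 times that of non-NCC (log2 ratio of 2.40 with an interval between 2.34 and 2.46). With libraries scaled by TMM factors, the log2 ratio at 16 hpf was 2.18 with an interval between 2.12 and 2.24. An equal level in both libraries would have given 14.6 NCC reads at 28 hpf, where 18 were counted, and 469.8 NCC reads at 16 hpf, where 2486 were counted. Over the whole table, 12 of the 49 miRNAs that both libraries of 28 hpf contained were more than 2-fold higher in NCC, which is 24.5%, and dre-miR-204-5p was not among them. At 16 hpf, 60 of 225 were, which is 26.7%, and dre-miR-204-5p was 1 of these. Of these 60 miRNAs, 2 had more NCC reads than dre-miR-204-5p, 30 had fewer than 10, and the median was 9. The 2 were miR-222a-3p and, named after its values were seen, miR-92b-3p.

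Its place in the order of ratios was 18th of 49 at 28 hpf and 19th of 225 at 16 hpf. When at least 10 reads were required in both libraries, it was 3rd of 20 at 28 hpf and 9th of 103 at 16 hpf, where 2 and 30 miRNAs were over 2-fold in NCC. The ratio of dre-miR-204-5p to that of another miRNA in the same pair of libraries does not depend on the scaling, and its exact conditional interval can be had from the 4 read counts. Of the other 102 miRNAs that met this minimum at 16 hpf, 91 had a ratio below that of dre-miR-204-5p and 7 had one above it, with intervals of the difference that leave out 0. The 7, named after their values were seen, were let-7f, miR-193b-5p, miR-130c-5p, miR-125b-2-3p, miR-222a-3p, miR-451 and miR-92a-5p. Among them, miR-222a-3p was the only miRNA with more NCC reads than dre-miR-204-5p, 9027 of them, and the others had between 24 and 246. For the remaining 4, miR-133a-3p, let-7i, miR-25-5p and miR-92a-2-5p, also named after their values were seen, the interval of the difference included 0.

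The ratio of NCC to non-NCC was lower at 28 hpf than at 16 hpf by 2.11 on the log2 scale, with an exact conditional interval from -2.87 to -1.44. This is a 4.31-fold smaller ratio at 28 hpf, with an interval from 2.71 to 7.30. Under scaling to library totals, to totals without miR-430 or with TMM factors, the difference lay between -1.73 and -1.47, and in each its interval stayed below 0. The ratio at 28 hpf itself depended on the scaling. Beside the 0.97 with totals without miR-430, where the interval left out 0, it was 0.71 on the log2 scale (-0.05 to 1.37) with TMM factors and 0.68 (-0.08 to 1.34) with library totals. The NCC library at 28 hpf, on whose 18 reads all of these values rest, is also the shallowest, and the non-NCC library of that stage was 169 times as deep. In the list of 16 miRNAs set out below, those with NCC reads at 28 hpf changed in both directions. The log2 ratio changed by -4.77 (-6.09 to -3.73) for miR-222a-3p and by -1.18 (-2.02 to -0.45) for miR-182-5p. The change was -0.45 (-0.59 to -0.32) for miR-181a-5p, -0.42 (-0.71 to -0.15) for miR-181b-5p and 0.91 (0.19 to 1.55) for miR-184. For miR-183-5p, miR-9-5p and miR-221-3p the interval included 0. These changes are in the deposited scaling, and another scaling shifts all of them by the same amount. The alternatives above shift them upwards, so the falls of miR-181a-5p and miR-181b-5p depend on the scaling. So does whether the intervals of miR-182-5p and miR-9-5p include 0. In each of these scalings miR-222a-3p fell by more than dre-miR-204-5p, so a fall was not particular to dre-miR-204-5p.

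The 3 precursor genes raise the question whether a read was counted more than once. At 28 hpf both counts, 18 and 1905, are multiples of 3, whereas at 16 hpf neither 2486 nor 27998 is. Divided by 3, the reads at 28 hpf become 6 in NCC and 635 in non-NCC, and the interval of the log2 ratio widens to between -1.15 and 1.43. At 16 hpf the same division leaves an interval from 2.30 to 2.51. The division was not carried to the change between stages or to the comparisons with other miRNAs, whose intervals take the reads as counted. Whether reads were counted at each gene was not tested.

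The opposite strand was almost absent. dre-miR-204-3-3p, named for the third precursor, had 3 reads (23.2 normalized counts) in NCC at 16 hpf and none in non-NCC at 16 hpf or in either library at 28 hpf. dre-miR-204-3p was read 1 time (0.130 normalized counts), in the non-NCC library of 16 hpf, and was at 0 in the other libraries. A further row of the family, dre-miR-204-2-3p, was at 0 in all 4. No fold is given for these rows, since none exceeds 3 reads, which were taken as the detection limit of a library. The 2 rows with reads thus did not share a library.

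Nearly all miR-204 reads were therefore of the 5p strand. The 5p share of the family was 18 of 18 reads in NCC at 28 hpf, with an interval of the 3p share that reaches 18.5%, and 1905 of 1905 in non-NCC, with one that reaches 0.193%. At 16 hpf it was 99.88% in NCC (99.65% to 99.98%) and 99.996% in non-NCC (99.980% to 99.9999%). The 3p share was accordingly 0.121% in NCC at 16 hpf (0.0249% to 0.352%) and 0.00357% in non-NCC (9.04e-05% to 0.0199%), and these intervals do not overlap. At the NCC share, 33.7 reads of the 3p strand would have been counted in non-NCC at 16 hpf, where 1 was. The difference rests on 3 NCC reads of 1 row, which is at the detection limit, and on 1 non-NCC read, which is below it. It is lost when dre-miR-204-3p alone stands for the 3p strand, since that row had no NCC read.

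Against the larger arm of other miRNAs, the 5p share was higher than most in the non-NCC libraries and nearer the middle in NCC at 16 hpf. In no library was it outside their range, but that range reached the ceiling of 100% in each and could not be exceeded. Arm shares were compared with those of miRNAs that have rows for both strands and at least 100 reads over both. In non-NCC at 28 hpf, the larger arm of the 40 other miRNAs held a median of 99.46% of reads, 9 of them were also at 100% and 31 were lower. In non-NCC at 16 hpf, 84 of 92 had a smaller share in their larger arm than miR-204 and 8 a larger one. In NCC at 16 hpf, 18 of 31 were lower and 13 higher, with a median of 99.19%. In NCC at 28 hpf miR-204 itself had fewer than 100 reads and only 5 others could be compared.

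A list of 16 miRNAs linked to eye, sensory or pigment cells was set beside dre-miR-204-5p. It holds the sensory cluster of miR-183, miR-96 and miR-182, the neuronal miR-124 and miR-9, miR-181 and miR-184 of retina and lens, and miRNAs that in mammals act on the pigment cell regulator MITF or the receptor KIT, such as miR-137, miR-148, miR-218 and the pair of miR-221 and miR-222. The list also contains miR-203a-3p, miR-203b-3p and miR-145-5p. At 28 hpf, 8 of the 16 had reads in both libraries, of which 0 were over 2-fold in NCC, 2 over 2-fold in non-NCC and 6 between, with a median log2 ratio of -0.58 beside 0 over all miRNAs. Over all 49, 24.5% were over 2-fold in NCC and 17, or 34.7%, were over 2-fold in non-NCC. Of the 8, 2 had at most 3 NCC reads. These were miR-183-5p with 2, counted as over 2-fold in non-NCC, and miR-221-3p with 1, counted as between. At 16 hpf 15 of the 16 had reads in both, of which 1 was over 2-fold in NCC, 7 over 2-fold in non-NCC and 7 between, with a median of -0.94 beside 0 over all. Over all 225, 26.7% were over 2-fold in NCC and 57, or 25.3%, were over 2-fold in non-NCC. Of the 15, 4 had at most 3 NCC reads. The 0 over all is set by the deposited scaling. A ratio of exactly 1 is held by miR-181a-5p at 16 hpf and by miR-25-3p at 28 hpf.

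At 16 hpf the ratio of dre-miR-204-5p was higher than that of 9 of the 10 listed miRNAs that met the minimum of 10 reads per library, with intervals of the difference above 0, beside 89.2% of all 102 other miRNAs by the same measure. It was 4.29-fold that of miR-182-5p (4.02 to 4.58), a sensory organ miRNA with 1589 NCC reads and 76847 non-NCC reads, and 6.17-fold that of miR-183-5p (5.53 to 6.89) from the same cluster. Against miR-184 of lens and cornea, which had 824 reads in NCC against 107224 in non-NCC, it was 11.6-fold (10.7 to 12.5). Against miR-9-5p, a miRNA of neural progenitors, it was 11.4-fold (10.3 to 12.7). The exception was miR-222a-3p, whose 8.68-fold higher level in NCC exceeded the 5.29-fold of dre-miR-204-5p.

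At 28 hpf fewer differences from the list could be seen. The ratio of dre-miR-204-5p exceeded that of miR-222a-3p 3.87-fold (1.54 to 11.0), that of miR-182-5p 2.26-fold (1.07 to 4.83) and that of miR-9-5p 2.003-fold (1.003 to 3.96, the lower end just above 1). For the other 12 listed miRNAs with reads at this stage the interval included an equal ratio, and 7 of these had no NCC read. Against miR-184, which had 20 reads in NCC against 3016 in non-NCC at this stage, it was 1.42-fold (0.709 to 2.84). No share over all miRNAs was computed by this measure at 28 hpf, so the 3 differences have no background beside them. The 3 differences also take the reads as counted, without the division by precursor genes, which would widen their intervals.

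**Figure D3:**
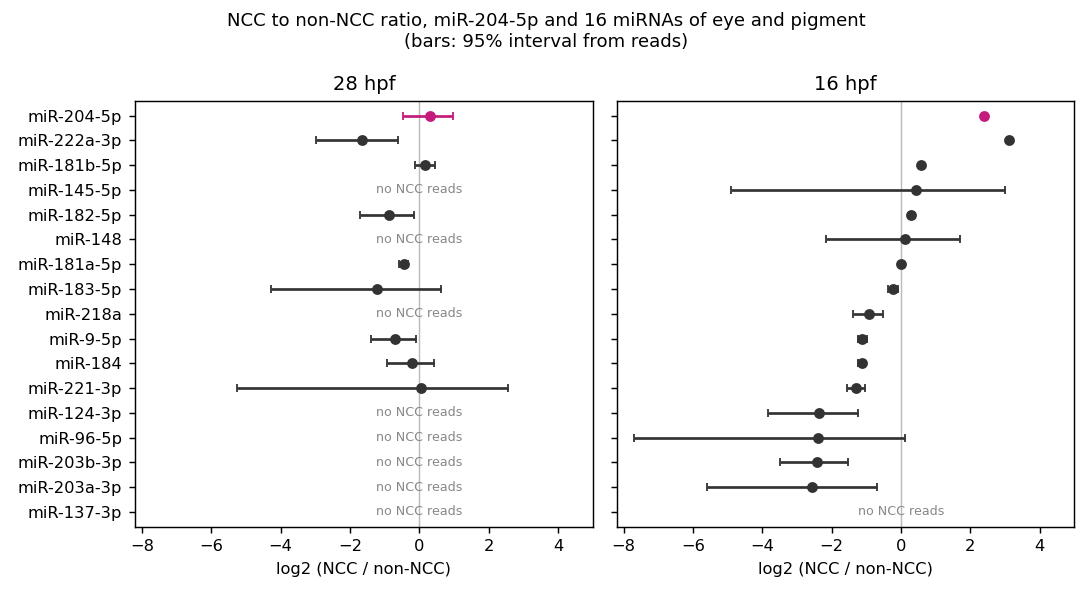
log2 ratio of NCC over non-NCC normalized counts at 28 hpf (left) and 16 hpf (right) for dre-miR-204-5p and the 16 listed miRNAs, with 95% intervals from the reads. miRNAs without NCC reads are marked as such. At 16 hpf dre-miR-204-5p at 2.40 is exceeded by miR-222a-3p at 3.12 alone, and at 28 hpf dre-miR-204-5p at 0.30 has an interval that includes 0.

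Likeness of pattern was measured as the distance between the pairs of log2 ratios at both stages, among 24 other miRNAs with 10 or more reads per library at 16 hpf and at least 3 NCC and 10 non-NCC reads at 28 hpf. The nearest was miR-735-5p at a distance of 1.15, with log2 ratios of 0.76 at 28 hpf (4 NCC reads) and 1.35 at 16 hpf (272 NCC reads). It was followed by miR-181a-2-3p at 1.69, miR-125b-5p at 1.79, miR-181b-5p at 1.82 and miR-222a-3p at 2.08. All 5 thus lay more than 1 log2 unit away from it. The 2 ratios of each miRNA come from the same 4 libraries, and the distance is a description. Of the 25 miRNAs including dre-miR-204-5p, 5 were over 2-fold in NCC at 16 hpf, and of these 1 was over 2-fold in NCC at 28 hpf, 2 lay between and 2 were over 2-fold in non-NCC. dre-miR-204-5p was one of those between. The 1 over 2-fold in NCC at 28 hpf was miR-125b-5p, with 3 NCC reads and a log2 ratio of 1.78 (-0.52 to 3.36). The split is that of the deposited scaling.

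**Figure D4:**
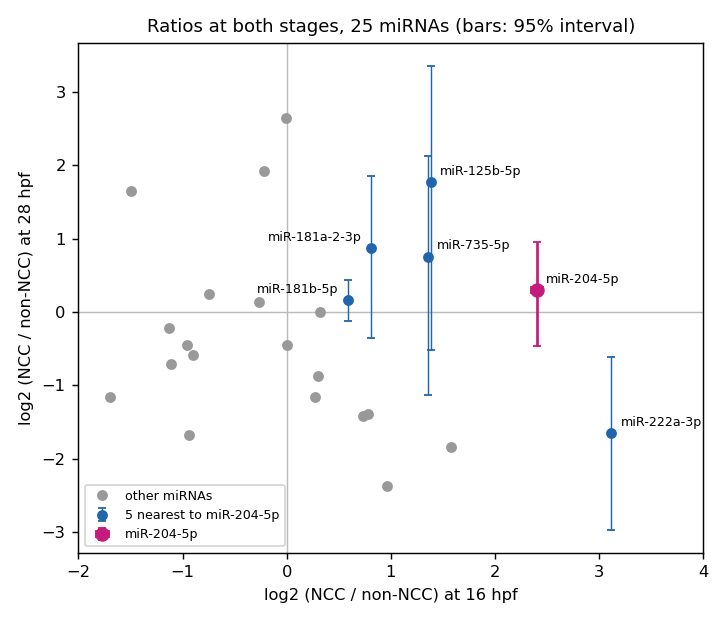
log2 ratio of NCC over non-NCC at 28 hpf against that at 16 hpf for the 25 miRNAs covered at both stages, with dre-miR-204-5p and the 5 nearest miRNAs named and drawn with 95% intervals (at 28 hpf, and for dre-miR-204-5p at both stages). dre-miR-204-5p lies far to the right at 2.40 and near the horizontal zero line at 0.30.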

How the data were processed

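Per the methods and labels, alignment by the authors used Bowtie, counting used HTSeq, and normalization and differential expression used DESeq2. The submitters' notes name GRCz11. Tool versions and the handling of reads that match several precursors are not given in the sources used here. The deposited values are a signal that is never negative, namely reads divided by the size factor of the library, with the libraries of a stage scaled together. The smallest nonzero value of a library divided 100% of its values into whole numbers (largest distance from a whole read 4.02e-07), and the quotients were taken as reads. Ratios have Clopper-Pearson intervals at 95%, and differences of ratios have exact conditional intervals (noncentral hypergeometric). Both were tested on simulated Poisson reads with the scaling held exact. The simulation thus checked the calculation and held no PCR copies, scaling error or spread between libraries. The detection limit of a library was taken as 3 reads. Called means over 2-fold with reads in both libraries.

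Named miRNAs were the miR-204 rows, their neighbours in rank, the list of 16 and the 5 nearest in both ratios, and others are marked. Members and lists were chosen with earlier results of these data known. Alternatives were other scalings (with edgeR 4.0.16), pseudocounts, divided or summed reads, other denominators and other thresholds. Python 3.11.15, numpy 2.4.6, pandas 2.3.3, scipy 1.17.1, matplotlib 3.10.9 and R 4.3.3 were used. No mature sequences were used here.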

Additional observations from a re-analysis of the deposited data

Results flagged for a closer look

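The ratio of NCC to non-NCC of dre-miR-204-5p differed between the stages, with a change (28 minus 16 hpf) of -2.11 on the log2 scale and an exact conditional interval that leaves out 0. The NCC side at 28 hpf holds 18 reads, and each ratio comes from 1 library per population. Other miRNAs changed as well, in the deposited scaling with a larger fall for miR-222a-3p (-4.77) and a rise for miR-184 (0.91).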

How the results depend on the processing

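Of 36 alternative values, 24 stayed within the counting interval, the rank range or 1.5 times the count first given. The log2 ratio of dre-miR-204-5p at 28 hpf moved to 0.97 with library totals without miR-430, and that at 16 hpf to 2.18 with TMM factors. Without miR-430 in the denominator, the share of dre-miR-204-5p at 28 hpf was 1.02% for NCC against 0.520% for non-NCC. At 16 hpf it was 1.32% for NCC against 0.242% for non-NCC. The log2 ratio of these shares, 28 over 16 hpf, was then -0.38 in NCC, where it had been 1.38 over all reads, and 1.10 in non-NCC, where it had been 3.12. The removal of the miR-430 reads is by construction the cause. With dre-miR-204-3p alone as the 3p strand, the 5p share in NCC at 16 hpf was 100%. At 4-fold, 25 miRNAs were over the threshold in NCC at 16 hpf in place of 60. With a minimum of 10 reads per library, 2 were over 2-fold at 28 hpf in place of 12, and 30 at 16 hpf. Counting rows with identical values once changed no rank. No replicate could be left out, because each group has 1 library, and a fit that pairs the populations by stage was not run. At 28 hpf the 6502 reads of the NCC library limit what can be seen, where 3 reads are 0.0461% of the library.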
